A study of Homo sapiens with 24 samples.

Results

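The comparison described here is the earliest of an RNA-seq time course of the dexamethasone (dex) response in A549 cells. A549 is an established human cell line of alveolar epithelial type that came from a lung adenocarcinoma. It comprises 4 of the 24 libraries of the series, chosen by the treatment and the duration that their labels give. In 2 of them, cells had been exposed for 1 h to 100 nM dex dissolved in ethanol, and in the other 2 to the same volume of ethanol (EtOH, 0.02% of the medium by volume), so that both groups carried the vehicle. The labels name no genetic change, all libraries came from this single line, and poly-A RNA of whole cultures was sequenced. The treatment text of the labels gives 1 h for each library of the series, whereas the duration field gives 1 to 11 h and was followed here. The labels number the replicates 1 and 2 but do not say whether these were separate cultures, so that the p-values below measure the spread between these libraries, which may be technical. No library from before the exposure was analysed here.

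Dex is a synthetic glucocorticoid (GC). It binds the glucocorticoid receptor (GR), a transcription factor that waits in the cytoplasm with heat shock protein chaperones, moves to the nucleus once bound, and activates genes from glucocorticoid response elements, most of which lie in enhancers at a distance from the promoter. GR also represses many genes of inflammation, where it meets AP-1 and NF-κB, the factors through which cells turn on cytokines. In lung epithelium GCs are known for this anti-inflammatory action, for the induction of brakes on MAP kinase and NF-κB signalling, and for effects on fuel use and the circadian clock.

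The dex libraries held 10123509 and 6708864 counts and the EtOH libraries 11181677 and 13619043. The second dex library was the shallowest of the series, and its 100 highest features took 26.4% of its counts, against 23.4 to 24.1% in the other 3 libraries. Levels are given as normalized CPM, the counts of a gene scaled to a common library total with TMM factors. They are not divided by transcript length and serve to compare libraries, not genes. The 12 markers of epithelium and of A549 summed to between 27148 and 27731 CPM of the library total in each library (without TMM factors, as for the sums that follow). Markers of other cells summed to far less. The 8 fibroblast markers summed to 18.6 to 28.8 CPM, and 5 of them had enough counts to be tested. Sums were 0.367 to 1.19 CPM for 5 endothelial markers (VWF at 0) and 4.45 to 7.05 CPM for 9 leukocyte markers (CD3D, CD3E and MS4A1 among those at 0). In cultures of this kind, fewer cells that hold a transcript and less of it in each cell cannot be told apart.

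After 1 h, few genes had moved. Those that rose included well known targets of GR and those that fell included chemokines, while genes of the immediate early response were found on both sides. Of 19897 tested features (15337 genes and single transcripts to which no gene could be assigned), 172 passed an adjusted p of 0.1 in edgeR's quasi-likelihood test, which is 0.864% of those tested. Dex raised 104 of them (0.523% of the tested features) and lowered 68 (0.342%). The change was at least 2-fold for 53 of the higher and 27 of the lower features, and the median log2 fold change was 1.01 among the former, -0.86 among the latter and near 0 (-0.0017) over all tested features. In normalized CPM the 2 dex libraries did not overlap the 2 EtOH libraries for any of the 172, whereas over all tested features the dex libraries were both higher in 16.4% and both lower in 18.4%. Without any adjustment, 1311 features had a p under 0.05.

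**Figure D1:**
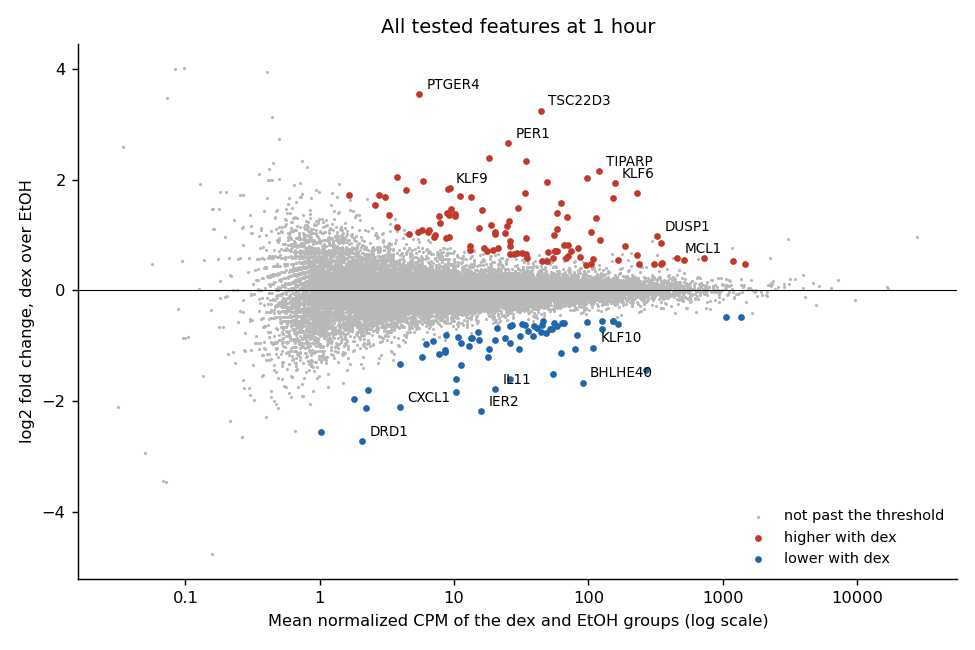
Each point is a tested feature at 1 h, placed by its mean normalized CPM over both groups (x axis, log scale) and its log2 fold change of dex over EtOH (y axis), with the 104 features higher with dex in red, the 68 lower in blue and the rest in grey. The coloured points stand clear of the cloud around 0 from levels of a few CPM upward, with TSC22D3 and PTGER4 at the top and DRD1 and AC098829.1 lowest among the blue points.

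Counts of calls depended on the library left out. Without replicate 1 of dex 338 features were higher and 172 lower, without replicate 2 of dex 405 and 357, without replicate 2 of EtOH 60 and 34, and without replicate 1 of EtOH 81 and 56. The sign of all 172 was kept in each of these fits. Since their dex and EtOH libraries did not overlap, leaving out 1 library could hardly have changed a sign.

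The 4 markers were followed through the comparison, 3 of them known targets of GR that are induced and 1 a cytokine that GCs repress. TSC22D3 (ENSG00000157514, chrX:107713221-107777342 of GRCh38, minus strand) encodes GILZ, a leucine zipper protein that restrains AP-1 and NF-κB. It was at 75.2 and 84.7 CPM with dex and at 7.12 and 9.63 CPM with EtOH, so that the groups lay far apart. The fold change was 9.49 (log2 3.25 ± 0.16 standard error, edgeR adjusted p = 3.00e-10). PER1 (ENSG00000179094, chr17:8140472-8156506, minus strand), a repressor in the circadian clock, was at 42.3 and 45.2 CPM with dex and at 6.51 and 7.33 CPM with EtOH. That is a 6.32-fold rise (log2 2.66 ± 0.17, edgeR adjusted p = 3.40e-09). KLF9 (ENSG00000119138, chr9:70384597-70414624, minus strand), a zinc finger repressor, was at 13.4 and 15.0 CPM with dex against 3.64 and 4.24 CPM with EtOH. It rose 3.57-fold (log2 1.84 ± 0.21, edgeR adjusted p = 2.82e-05). IL11 (ENSG00000095752, chr19:55364389-55370463, minus strand) encodes interleukin 11, a cytokine of the IL-6 family. It went the other way, with 8.66 and 9.53 CPM with dex against 30.03 and 32.5 CPM with EtOH, a 3.44-fold fall (log2 -1.78 ± 0.17, edgeR adjusted p = 1.71e-06). For each of the 4 the libraries of the groups did not overlap.

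The stretches of 100 bases upstream of the start that is nearest to the most counted transcript are shown for these markers because these genes were fixed as markers of the response in both directions. They are RefSeq sequences of GRCh38.p14, read 5′ to 3′ on the strand of the gene and moved upstream where needed so that no annotated exon is included. Capitals mark an AP-1 site (TGANTCA on either strand), which was found in the IL11 stretch and not in the other 3.
TSC22D3 (chrX:107717136-107717235, minus strand): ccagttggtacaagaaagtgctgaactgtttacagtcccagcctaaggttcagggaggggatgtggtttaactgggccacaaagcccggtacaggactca
PER1 (chr17:8152436-8152535, minus strand): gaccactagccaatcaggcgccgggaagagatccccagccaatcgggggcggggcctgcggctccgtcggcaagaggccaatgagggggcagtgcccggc
KLF9 (chr9:70414658-70414757, minus strand): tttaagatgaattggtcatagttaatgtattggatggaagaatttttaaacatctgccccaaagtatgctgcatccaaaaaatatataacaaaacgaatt
IL11 (chr19:55370464-55370563, minus strand): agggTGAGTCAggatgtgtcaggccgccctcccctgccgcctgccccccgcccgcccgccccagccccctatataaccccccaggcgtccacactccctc

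The plot of levels by library shows the 12 largest rises, the 12 largest falls and the markers. The strongest rise among them, larger than that of any marker, was that of PTGER4, the prostaglandin E2 receptor EP4, which signals through cAMP. It was at 10.1 CPM in both dex libraries and at 0.955 and 0.791 CPM with EtOH, an 11.6-fold rise (log2 3.54 ± 0.29, edgeR adjusted p = 1.78e-07). TIPARP, a target of the aryl hydrocarbon receptor that modifies proteins with ADP-ribose, was at 196 and 195 CPM with dex against 44.3 CPM in both EtOH libraries (4.43-fold, edgeR adjusted p = 6.13e-10). For both genes the replicates of a group were much closer to each other than the groups were. SNAI2, a repressor of epithelial genes, was at 8.17 and 10.4 CPM with dex against 2.52 and 2.16 CPM with EtOH (3.95-fold, edgeR adjusted p = 0.000106). SYBU, a linker of vesicles to kinesin, rose 3.59-fold (edgeR adjusted p = 2.91e-05). A transcript in this group, ENST00000248673.3, could be assigned to no gene and rose 5.24-fold from 5.81 and 5.82 CPM to 29.9 and 30.9 CPM (edgeR adjusted p = 3.41e-08).

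**Figure D2:**
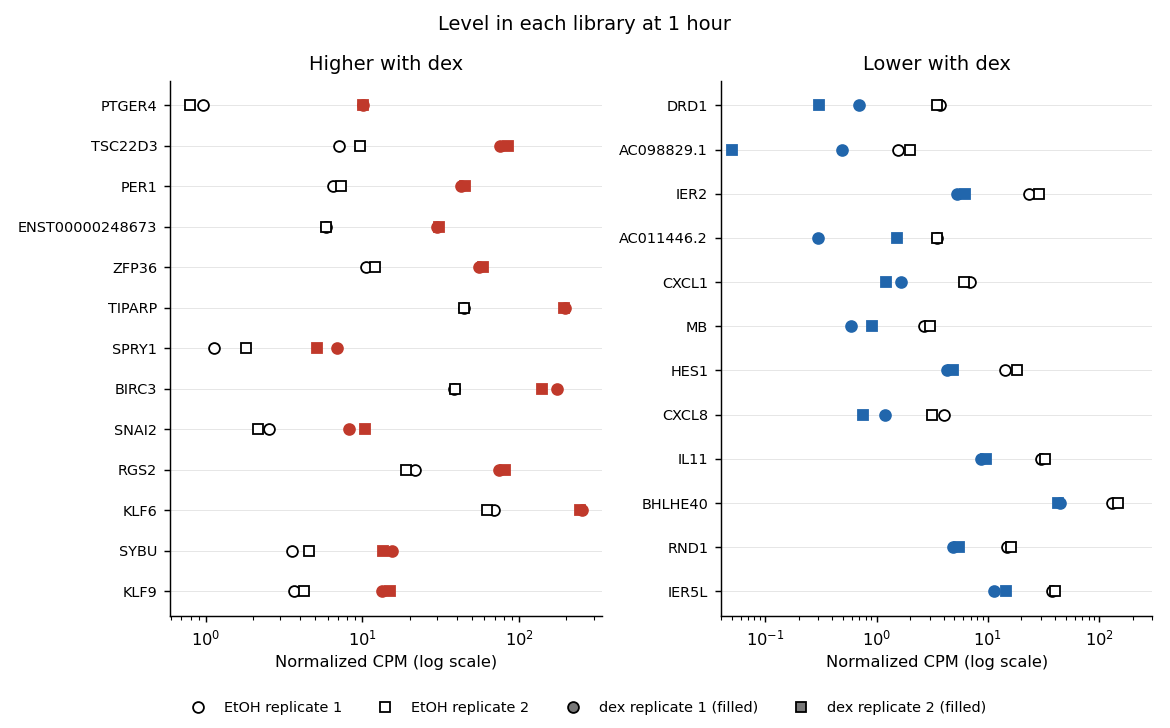
Normalized CPM on a log scale at 1 h for each library, with open symbols for EtOH and filled symbols for dex, circles for replicate 1 and squares for replicate 2; the left panel holds genes that rose and the right panel genes that fell, ordered by fold change. In each row the filled and the open symbols are apart, and AC098829.1 had 0 counts in replicate 2 of dex, which is drawn at the left edge.

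Of 43 tested genes on a list of textbook GC-induced genes, 28 were higher with dex, 0 were lower, and the median log2 fold change was 1.10, against near 0 over all tested features. Beside this and each list below stand the shares over all tested features, 0.523% higher and 0.342% lower. The list was written with an earlier account of these data known, so that its count is not independent evidence of its direction. Beside TSC22D3, PER1 and KLF9, the rises included ERRFI1, an inhibitor of the EGF receptor, at 362 and 351 CPM with dex against 107 and 105 CPM with EtOH (3.39-fold, edgeR adjusted p = 3.40e-09). CAVIN2, a coat protein of caveolae, rose 3.36-fold (edgeR adjusted p = 8.63e-07), and the thiamine transporter SLC19A2 rose 2.80-fold (edgeR adjusted p = 1.25e-05). DUSP1, the phosphatase that inactivates p38 and JNK, stood at 220 and 222 CPM with EtOH already and rose 1.96-fold to 479 and 383 CPM (edgeR adjusted p = 4.43e-05). The kinase SGK1, which regulates sodium transport, rose 1.49-fold (145 and 114 CPM against 83.2 and 92.0 CPM, edgeR adjusted p = 0.0332). CEBPB and CEBPD, leucine zipper factors of the acute phase response, rose 2.14-fold and 2.64-fold (edgeR adjusted p = 2.21e-05 and 0.000601). The other 15 members did not pass. FKBP5, a co-chaperone that dampens GR, had 39.1 CPM with dex against 27.5 CPM with EtOH on average (log2 fold change 0.52 ± 0.14, edgeR adjusted p = 0.135). Values close to no difference were found for GLUL, glutamine synthetase (log2 -0.05 ± 0.17, edgeR adjusted p = 0.996), and for ANXA1, annexin A1 (log2 0.0038 ± 0.10, edgeR adjusted p = 0.999), which was at means of 1774 CPM with dex and 1778 CPM with EtOH.

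GR itself and its helpers showed no call, which is near the share of 0.864% called over all tested features. Among 15 tested genes for the receptor, its chaperones and its cofactors, 0 rose and 0 fell by edgeR and by DESeq2 (2 were higher and 0 lower at an unadjusted edgeR p under 0.05), with log2 fold changes from -0.20 to 0.52 and a median of 0.016. NR3C1, which encodes GR, was at means of 445 CPM with dex and 502 CPM with EtOH (log2 -0.17 ± 0.10, edgeR adjusted p = 0.885).

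Transcription factors moved in both directions. Among 13 tested Krüppel-like factors, zinc finger proteins of the GC-box, 4 rose and 1 fell (median log2 0.29). KLF6, a factor induced by injury, went from 68.6 and 62.2 CPM to 252 and 246 CPM (3.83-fold, edgeR adjusted p = 2.23e-09). KLF4, a factor of epithelial differentiation, rose 3.23-fold (edgeR adjusted p = 1.25e-05), and KLF15, a metabolic regulator, rose 1.76-fold (80.1 and 88.6 CPM against 50.4 and 45.6 CPM, edgeR adjusted p = 0.000774). KLF10, a factor induced early by TGF-β, fell 2.05-fold from 168 and 126 CPM to 81.5 and 60.4 CPM (edgeR adjusted p = 0.00104). Both dex libraries of KLF10 lay below both EtOH libraries, but the replicates of each group were spread widely.

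Of 67 tested factors on a list of other early transcription factors, 8 rose and 5 fell (median log2 0.068). BCL6, a repressor of lymphocyte and inflammatory genes, rose 2.55-fold (15.7 and 13.3 CPM against 5.90 and 5.61 CPM, edgeR adjusted p = 0.000669). CITED2, a cofactor that competes for CBP and p300, rose 2.75-fold (edgeR adjusted p = 3.90e-05), and TFCP2L1, a grainyhead-like factor, rose 2.23-fold (edgeR adjusted p = 0.000343). HES1, the best known target of Notch, fell 3.55-fold, from 14.3 and 18.1 CPM to 4.33 and 4.84 CPM (edgeR adjusted p = 4.12e-05). ELF3, an ETS factor of epithelium, fell 2.20-fold (edgeR adjusted p = 1.83e-05). ID2 and ID4, which block helix-loop-helix factors, fell 1.51-fold and 1.68-fold (edgeR adjusted p = 0.0173 and 0.0768). Of 18 genes on a list of Wnt and Notch targets and ligands, 0 rose and 2 fell, HES1 and the Wnt target AXIN2 (2.01-fold lower, edgeR adjusted p = 0.0572).

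In the circadian clock 3 of 17 tested genes rose and 1 fell by edgeR (median log2 -0.017), whereas DESeq2 called 1 higher and 1 lower. PER2, the partner of PER1, rose 1.74-fold (18.3 and 14.7 CPM against 10.4 and 8.91 CPM, edgeR adjusted p = 0.0578), and NR1D2, the nuclear receptor REV-ERBβ, rose 1.37-fold (edgeR adjusted p = 0.0931). Neither passed with DESeq2 (adjusted p = 0.265 and 0.170) or without either one of the EtOH libraries. BHLHE40 (DEC1, ENSG00000134107, chr3:4979116-4985323, plus strand), a repressor at the E-boxes that the clock uses, fell 3.17-fold, from 130 and 147 CPM to 44.5 and 42.2 CPM (edgeR adjusted p = 3.76e-08). The activators CLOCK and ARNTL had log2 fold changes of 0.013 and 0.065 and did not pass (edgeR adjusted p = 0.998 and 0.992).

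Several brakes on signalling rose. On the list of MAP kinase phosphatases, Sprouty proteins and feedback on the EGF receptor, 5 of 22 tested genes rose and 0 fell, with a median log2 fold change of 0.075. SPRY1, an inhibitor of receptor tyrosine kinase signalling, was at 6.89 and 5.14 CPM with dex against 1.13 and 1.797 CPM with EtOH (4.12-fold, edgeR adjusted p = 0.000829), and SPRY2 of the same family rose 1.93-fold (edgeR adjusted p = 0.0262). RGS2, which turns off G proteins, went from 21.5 and 18.98 CPM to 74.9 and 81.1 CPM (3.87-fold, edgeR adjusted p = 1.52e-08). DUSP1 and ERRFI1 were the other 2. The remaining 17 included DUSP5, with a log2 fold change of -0.066 (edgeR adjusted p = 0.983), and DUSP6, with 0.50 ± 0.26 (edgeR adjusted p = 0.805). The lowest log2 fold change on the list was -1.11, and at an unadjusted edgeR p under 0.05 the list held 6 higher and 1 lower. In the test per transcript, DUSP4-202 of the phosphatase DUSP4 was called lower (log2 -0.67 ± 0.16, edgeR adjusted p = 0.0891), while DUSP4 as a whole did not pass.

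Among 24 tested NF-κB subunits and brakes, 3 rose and 0 fell (median log2 -0.059), and all 3 were brakes or feedback genes rather than subunits. NFKBIA encodes IκBα, which holds NF-κB in the cytoplasm. It was at 232 and 236 CPM with dex against 68.6 and 78.4 CPM with EtOH (3.20-fold, edgeR adjusted p = 1.37e-08). BIRC3, a ubiquitin ligase of the TNF receptor complex, rose 4.10-fold (174 and 140 CPM against 38.2 and 38.9 CPM, edgeR adjusted p = 4.20e-09), and TNFAIP3 (A20), a ubiquitin-editing inhibitor of the pathway, rose 2.32-fold (11.9 and 9.98 CPM against 5.47 and 4.17 CPM, edgeR adjusted p = 0.00643). The subunits RELA and NFKB1 had log2 fold changes of -0.044 and -0.13 (edgeR adjusted p = 0.992 and 0.950). BCL3, a relative of IκBα that was not on this list, was called lower (log2 -0.62, edgeR adjusted p = 0.0631). On the list of mRNA decay proteins 2 of 22 rose and 0 fell (median log2 0.059). ZFP36 (tristetraprolin), which binds AU-rich elements of cytokine mRNAs and speeds their decay, went from 10.5 and 12.1 CPM to 55.4 and 59.0 CPM (5.07-fold, edgeR adjusted p = 4.78e-09). ZC3H12A (regnase-1), an endonuclease with similar targets, rose 2.18-fold (edgeR adjusted p = 0.00111).

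The chemokines and cytokines that were called were all lower with dex. The largest rise on their list was larger in size than the largest fall, but it was not called. Of 21 tested members 0 rose and 4 fell by edgeR (0 and 3 by DESeq2, 3 and 9 at an unadjusted edgeR p under 0.05), and the median log2 fold change was -0.39. Beside IL11 these were the neutrophil attractants CXCL1 and CXCL8 and the monocyte attractant CCL2. CXCL1 fell 4.31-fold, from 6.86 and 6.11 CPM to 1.67 and 1.21 CPM (edgeR adjusted p = 0.000448), CXCL8 (interleukin 8) fell 3.48-fold, from 3.99 and 3.16 CPM to 1.18 and 0.756 CPM (edgeR adjusted p = 0.0236), and CCL2 fell 1.81-fold (edgeR adjusted p = 0.0228). CXCL8 had 12 and 5 counts in the dex libraries. CXCL5, at means of 249 CPM with dex and 270.4 CPM with EtOH, had a log2 fold change of -0.11 ± 0.11 (edgeR adjusted p = 0.947), and LIF, of the IL-6 family, had -0.39 ± 0.14 (edgeR adjusted p = 0.526). PTGS2, the inducible cyclooxygenase, fell 1.71-fold (42.2 and 29.04 CPM against 62.9 and 60.8 CPM, edgeR adjusted p = 0.0130).

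Promoter stretches of 4 of these genes are shown. NFKBIA and BIRC3, which rose, and CXCL1, which fell, had the same kind of site, and CXCL8 is shown for a site of another kind. Each stretch holds a match with 30 bases on either side, from RefSeq on GRCh38.p14 and read 5′ to 3′ on the strand of the gene. Capitals mark an NF-κB site (GGG, any 2 bases, then TTTCC, on either strand) in NFKBIA, BIRC3 and CXCL1 and an AP-1 site (TGANTCA) in CXCL8.
NFKBIA, higher with dex (chr14:35404791-35404860, minus strand): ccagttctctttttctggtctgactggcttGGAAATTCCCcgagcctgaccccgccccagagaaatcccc
BIRC3, higher with dex (chr11:102317255-102317324, plus strand): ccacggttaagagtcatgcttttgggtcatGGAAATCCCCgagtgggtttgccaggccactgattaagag
CXCL1, lower with dex (chr4:73869284-73869353, plus strand): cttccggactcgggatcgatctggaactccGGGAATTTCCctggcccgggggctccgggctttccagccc
CXCL8, lower with dex (chr4:73740402-73740468, plus strand): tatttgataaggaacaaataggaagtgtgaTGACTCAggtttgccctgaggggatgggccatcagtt

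Over all windows of 300 bases (250 before to 50 after a RefSeq start), promoters were found for 72 of the higher and 47 of the lower genes, with 109 and 66 windows because some genes have several starts, and for 10699 of the tested genes with 15541 windows. An NF-κB site stood in 6 windows of the higher genes (5.50%), 3 of the lower genes (4.55%) and 2.09% of all windows. An AP-1 site stood in 9 (8.26%), 5 (7.58%) and 5.46%, and a cAMP response element (TGACGTCA), for which DUSP1 was the example among the named genes, in 2 (1.83%), 1 (1.52%) and 2.69%. A full glucocorticoid response element (GNACA and TGTNC with 3 bases between them, either strand) was found in 0 windows of the called genes and 0.251% of all windows. These counts describe letters within short windows and were not tested.

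Immediate early genes split. Of 33 tested, 6 rose and 9 fell, with a median log2 fold change of -0.17. Those that rose were DUSP1 and ZFP36, described above, MCL1, a survival protein of the BCL2 family (log2 0.59), the cytoskeletal GTPase RHOB (1.89-fold), the stress gene GADD45A (1.93-fold) and CTGF, a matricellular growth regulator (2.65-fold, edgeR adjusted p from 2.85e-06 for CTGF to 0.0182 for MCL1). Those that fell were led by IER2 (ENSG00000160888, chr19:13150415-13154908, plus strand), a nuclear protein induced by serum. It was at 5.32 and 6.20 CPM with dex against 23.3 and 28.7 CPM with EtOH (4.55-fold lower, edgeR adjusted p = 7.96e-07). IER5L, IER3 and IER5 also fell, by 3.02-fold, 2.55-fold and 1.94-fold (edgeR adjusted p = 5.67e-06, 0.000497 and 0.00165). JUN, a subunit of AP-1, fell 2.30-fold, from 25.8 and 24.2 CPM to 11.3 and 10.1 CPM (edgeR adjusted p = 0.000381), and its partner FOSL1 fell 1.87-fold (edgeR adjusted p = 0.0765). FOS, with 37 and 28 counts in the dex libraries and 56 and 52 in the EtOH libraries, had a log2 fold change of -0.12 ± 0.27 (edgeR adjusted p = 0.988), and MYC had 0.0086 ± 0.11 (edgeR adjusted p = 0.999). CYR61 fell 1.63-fold (edgeR adjusted p = 0.00850), opposite in direction to CTGF of the same protein family.

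**Figure D3:**
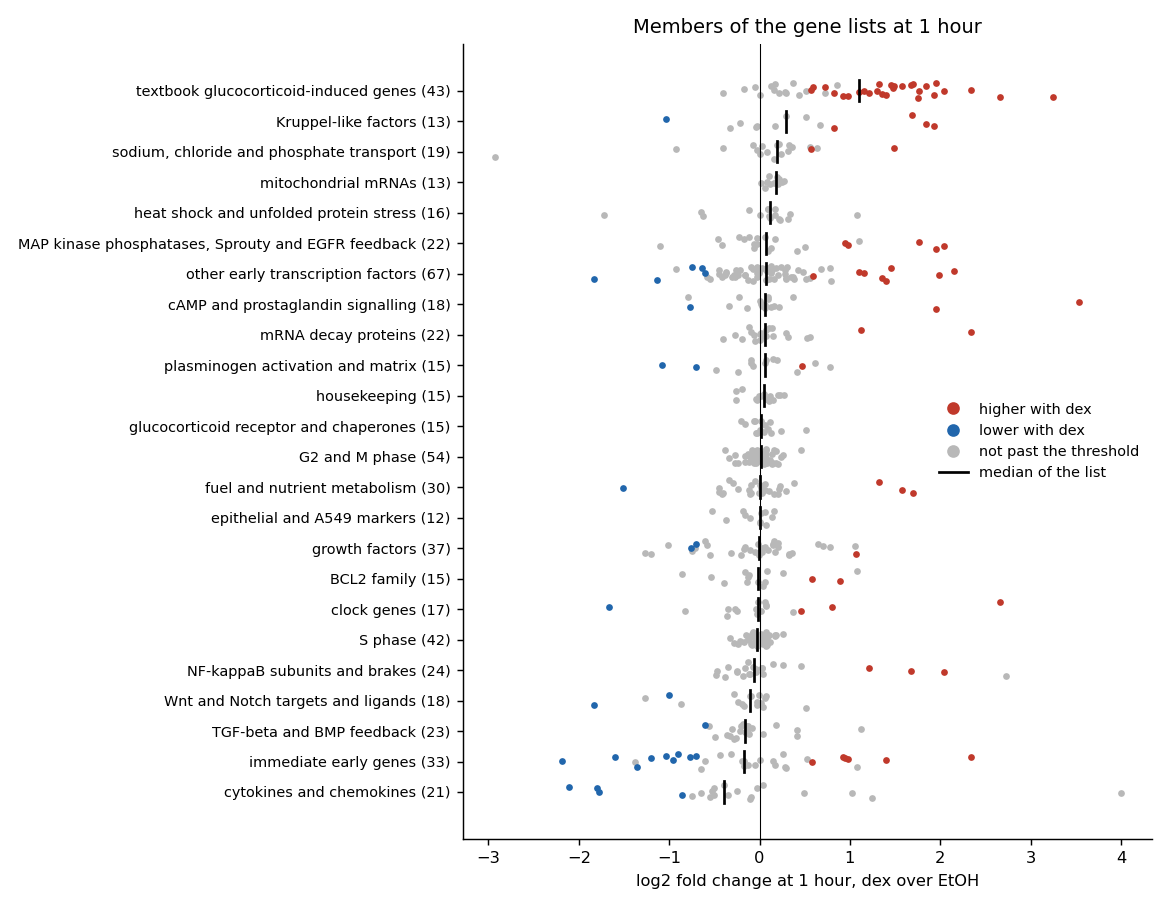
Each point is a tested member of a gene list, placed by its log2 fold change of dex over EtOH at 1 h, with members higher with dex in red, lower in blue and not past the threshold in grey; black bars mark the medians and the numbers in brackets the members tested. The textbook GC-induced genes stand to the right with a median of 1.10, the cytokines to the left with -0.39, and the lists of the cell cycle, housekeeping and mitochondrial genes lie around 0 without a coloured point.

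The lists that follow held few calls, and over all tested features 0.523% were higher and 0.342% lower. A single call is a result about that gene and not about its list. Genes of fuel use gave 3 rises and 1 fall among 30 tested (median log2 0.0082). PDK4, the kinase that shuts pyruvate dehydrogenase, went from 32.5 and 30.9 CPM to 102 and 85.5 CPM (2.97-fold, edgeR adjusted p = 2.15e-07). ANGPTL4, an inhibitor of lipoprotein lipase, rose 3.25-fold (edgeR adjusted p = 8.32e-05) and the insulin receptor substrate IRS2 rose 2.49-fold (edgeR adjusted p = 1.46e-06). ARRDC3, an arrestin that removes receptors from the membrane, fell 2.84-fold, from 81.7 and 81.1 CPM to 29.8 and 26.9 CPM (edgeR adjusted p = 3.93e-07). Among 37 growth factors 1 rose, the vasoconstrictor EDN2 (2.09-fold, edgeR adjusted p = 0.0338), and 2 fell, its relative EDN1 (1.69-fold, edgeR adjusted p = 0.00590) and the EGF receptor ligand EREG (1.63-fold, edgeR adjusted p = 0.00149). In plasminogen activation and matrix, 1 of 15 rose and 2 fell. These were the urokinase PLAU (1.62-fold lower, edgeR adjusted p = 0.00537) and its receptor PLAUR (2.12-fold lower, edgeR adjusted p = 0.0148), whereas thrombospondin 1 (THBS1) rose 1.39-fold (edgeR adjusted p = 0.0338). In the BCL2 family MCL1 and the proapoptotic PMAIP1 (1.86-fold, edgeR adjusted p = 0.00277) were higher, and 0 of 15 fell. On the sodium, chloride and phosphate transport list the kinase SGK1 and the thiamine transporter SLC19A2 were the 2 of 19 that rose, and 0 fell. The lists of cAMP and prostaglandin signalling (PTGER4 and RGS2 higher and PTGS2 lower among 18) and of TGF-β and BMP feedback (ID2 lower among 23) gave the calls described above.

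Several lists held no call at 1 h. Over all 19897 tested features 0.864% were called, so 0 in lists of this size is near that share and does not mark them as quiet. An unadjusted edgeR p under 0.05 was found for 1311 of all tested features. On the lists of S phase (42 tested genes, median log2 -0.031), G2 and M phase (54, median 0.013), heat shock and unfolded protein stress (16, median 0.11), housekeeping (15, median 0.052), mitochondrial mRNAs (13, median 0.18) and markers of epithelium and A549 (12, median 0.0078), 0 rose and 0 fell by edgeR's test and 0 by DESeq2. At an unadjusted edgeR p under 0.05, the members higher and lower numbered 1 and 1 in S phase, 3 and 3 in G2 and M phase, 3 and 3 in heat shock, 1 and 1 in housekeeping, 3 and 0 in the mitochondrial mRNAs and 0 and 2 in the epithelial markers. The 5 fibroblast, 1 endothelial and 2 leukocyte markers that could be tested had 0 in either direction by each of these 3 counts.

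Large falls outside these lists included DRD1, the dopamine D1 receptor, which went from 3.73 and 3.52 CPM to 0.689 and 0.303 CPM (6.62-fold lower, edgeR adjusted p = 0.00139), with 7 and 2 counts in the dex libraries. RND1, a GTPase that disassembles actin, fell 3.03-fold (edgeR adjusted p = 0.000113), and MB, myoglobin, fell 3.91-fold (0.591 and 0.908 CPM against 2.69 and 3.02 CPM, edgeR adjusted p = 0.0262). The other 2 of the 12 largest falls were noncoding RNAs that overlap a called gene. AC011446.2 lies opposite to IER2 and AC098829.1 opposite to CPEB2, and since the use of strand in counting is not given, reads of such pairs may be shared. The same holds for the overlapping genes POC1B-GALNT4 and GALNT4 and for FAM47E-STBD1 and STBD1, each of which were both higher.

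Among calls outside the lists, chosen after their values were seen, were THBD, thrombomodulin, at 146 and 136 CPM with dex against 68.2 and 67.9 CPM with EtOH, and F3, tissue factor, at 15.0 and 14.5 CPM against 5.29 and 6.11 CPM, an inhibitor and an initiator of coagulation. PRDM1, a repressor that ends lymphocyte programmes, was at 12.9 and 13.6 CPM against 5.38 and 5.03 CPM, and the kinase PLK2 was at 143 and 144 CPM against 397 and 383 CPM. MTRNR2L1, MTRNR2L2, MTRNR2L8 and MTRNR2L12, near-identical nuclear copies of the mitochondrial 16S rRNA whose reads cannot be told from one another, were all higher with dex (log2 fold changes of 0.80, 0.53, 0.58 and 0.47). Beside them the 13 mitochondrial mRNAs had log2 fold changes from 0.017 to 0.27, and mitochondrial transcripts took 5.19 and 4.94% of the counts with dex and 4.98 and 4.71% with EtOH. The part of mitochondrial RNA in these 4 calls was not tested.

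Transcript by transcript, the same comparison called 235 of 56380 tested transcripts (0.417%), 153 higher and 82 lower. Of these, 219 belonged to called features, and 147 of the 172 called features had at least 1 called transcript. No called gene had transcripts called in both directions. TSC22D3 illustrates this, with 9 of its 10 tested transcripts higher, from log2 2.15 ± 0.51 for TSC22D3-213 to 3.80 ± 0.30 for TSC22D3-204. Reads that match several transcripts of a gene may have been divided among them, so these are not independent. For IL11 the main transcript, IL11-201, held 76 and 48 counts in the dex libraries, out of 88 and 63 for the gene, and 294 and 358 in the EtOH libraries, out of 346 and 452. Of 16 called transcripts from other features, FKBP5-204 rose with a log2 fold change of 1.27 ± 0.25 (68 and 49 counts with dex, 27 and 48 with EtOH, edgeR adjusted p = 0.0142), while FKBP5 as a whole did not pass. Its second EtOH library and the second dex library had nearly equal counts at very different depth.

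The called genes had a shorter genomic span than the genes tested. The median span from start to end was 14523 bp for the 98 higher genes and 10588 bp for the 65 lower genes, against 29494 bp for all 15337 tested genes, and the median number of exons in the most counted transcript was 4, 5 and 7. The length of that transcript did not follow the span, with medians of 3220.5 bases for the higher, 2741 for the lower and 2962 for all tested genes. Single-exon genes made up 14.3% of the higher, 9.23% of the lower and 5.14% of all tested genes. The median level with EtOH was 22.2 CPM for the higher genes, 38.5 CPM for the lower genes and 15.3 CPM for all, so the called genes also lay higher in the table. These are descriptions without a test.

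The rise and the fall at 1 h were then followed through the later libraries, which share no library with the 1 h comparison. Of the 104 higher features, 85 were called higher at 3 h, 86 at 5 h, 86 at 7 h, 87 at 9 h and 87 at 11 h, where 7.66, 11.2, 13.4, 9.79 and 5.31% of all tested features were called higher. Of the 68 lower features, 52, 42, 43, 43 and 36 were called lower at these times, where 5.29, 11.9, 12.4, 8.42 and 3.27% of all were. All 6 time points called 78 of the higher and 32 of the lower features. At no later time were 10 of the higher and 12 of the lower features called in the same direction, and 9 and 11 were called in the opposite direction at some later time. The fold change was largest at 1 h for 22 of the higher and 32 of the lower features.

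Whether an effect grew or shrank between 1 and 3 h was tested as the difference of the 2 fold changes over 8 libraries, 4 of which are those of the 1 h comparison. The test called 904 features (4.54%), 64 of them among the 172, and leaving out 1 library gave 316 (without replicate 2 of EtOH at 1 h) to 2085 (without replicate 2 of dex at 1 h) and 30 to 75. Of the higher features 28 had a larger effect at 3 h and 10 a smaller or reversed effect, and of the lower features 15 and 11. By 11 h the corresponding test called 769 features (3.86%), 46 of them among the 172, with 26 larger and 3 smaller among the higher and 7 and 10 among the lower. Leaving out 1 library gave 349 (without replicate 2 of EtOH at 11 h) to 2268 (without replicate 1 of dex at 11 h) and 20 to 64. Because the 1 h libraries enter both the choice of the 172 and these differences, and a choice by large effects at 1 h favours smaller ones later, the counts are given as a description and no p is given for a single effect that lessened.

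Genes with a larger effect at 3 h included TFCP2L1, with log2 fold changes of 1.16 at 1 h, 3.92 at 3 h and 4.34 at 11 h (difference between 3 and 1 h 2.76 ± 0.19, edgeR adjusted p = 4.74e-08), and ANGPTL4, with 1.70, 4.43 and 4.81 (difference 2.74 ± 0.29, edgeR adjusted p = 1.83e-05). At 11 h the dex libraries of ANGPTL4 were far apart, at 71.3 and 186 CPM. On the falling side EREG went from -0.70 at 1 h to -2.79 at 3 h (difference -2.09 ± 0.14, edgeR adjusted p = 4.70e-08) and IL11 from -1.78 to -3.32 (difference -1.54 ± 0.25, edgeR adjusted p = 0.00129). TIPARP, BIRC3, ERRFI1, NFKBIA and RGS2 differed between 3 and 1 h by 0.21 or less on the log2 scale, with edgeR adjusted p from 0.584 to 0.938. KLF6 was highest at 1 h and its log2 fold change fell by 0.58 to 1.36 at 3 h, and it stayed called at all 6 times. SPRY2 was called at 1 h and at no later time, with log2 fold changes of 0.95 at 1 h and -0.070 at 3 h (difference -1.02 ± 0.27).

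BHLHE40 returned towards the vehicle level. Its fold change went from -1.67 at 1 h to -0.85 at 3 h, -0.15 at 5 h and -0.17 at 11 h on the log2 scale, and it was not called from 5 h on. In the dex libraries its level rose from 44.5 and 42.2 CPM at 1 h to 73.2 and 69.6 CPM at 3 h, while the 10 later EtOH libraries lay between 114 and 146 CPM. IER2 also lessened, from -2.19 to -1.25 at 3 h (difference 0.94 ± 0.25), and remained lower at each time. JUN was called lower at 1 and 3 h and not later (log2 -0.27 at 5 h). KLF10 was called lower at 1 and 3 h and higher at 5 and 9 h (log2 0.28 and 0.39, edgeR adjusted p = 0.0468 and 0.0297). CYR61 and PLAU changed sign, from -0.70 for both at 1 h to 0.44 and 0.39 at 7 h, where both passed as higher (edgeR adjusted p = 0.000247 and 0.00107). NR1D2 went from 0.46 at 1 h and 1.48 at 3 h to -1.52 at 5 h, each past the threshold. KLF15 swung from 0.82 at 1 h to 1.75 at 5 h and -1.69 at 9 h, but its EtOH libraries alone ranged from 10.6 CPM at 5 h to 65.9 CPM at 9 h.

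**Figure D4:**
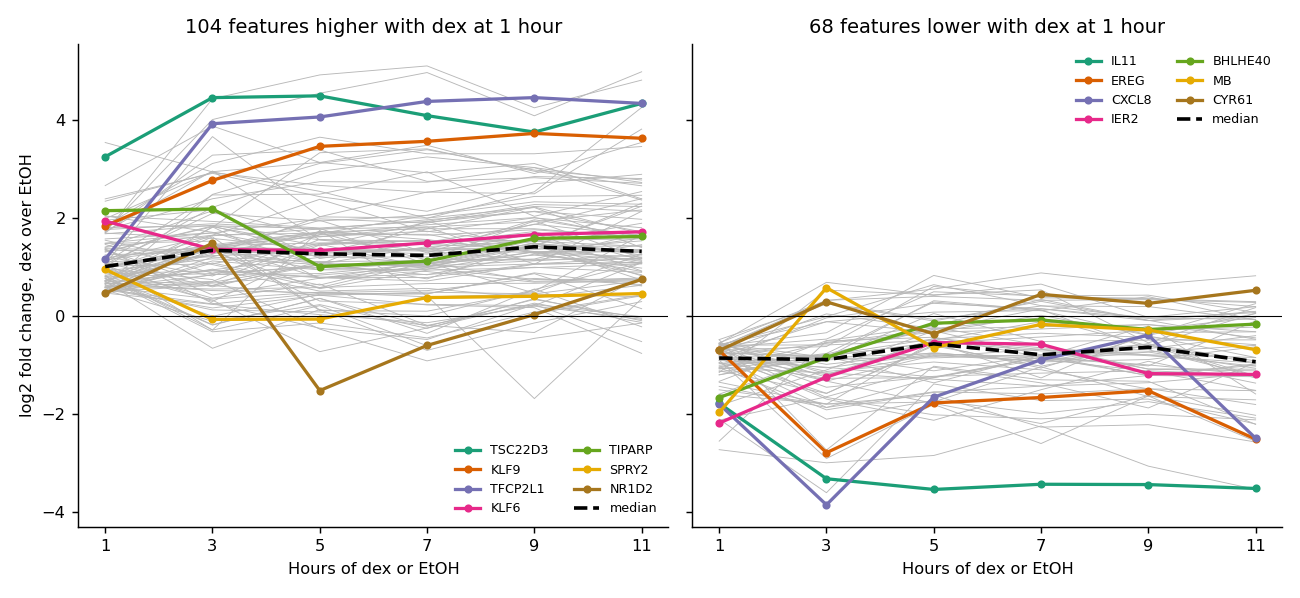
The log2 fold change of dex over EtOH (y axis) against hours of exposure (x axis) for the 104 features higher at 1 h (left) and the 68 lower at 1 h (right), with grey lines for single features, coloured lines for named genes and a dashed black line for the median. The median of the higher features stays between 1.01 and 1.41, that of the lower between -0.93 and -0.57, and NR1D2, SPRY2, MB and CYR61 cross 0.

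Levels in the EtOH group at 1 h were compared with the 10 later EtOH libraries. Both EtOH libraries of 1 h were above all 10 later EtOH libraries for 0 of the 104 higher and 1 of the 68 lower features (1.48% of all tested features) and below all of them for 0 and 1 (1.27%). The 2 exceptions were ENC1, which was above, and PLK2, which was below (397 and 383 CPM against 452 to 513 CPM later). For the immediate early genes that fell, IER2 was at 23.3 and 28.7 CPM at 1 h and between 17.9 and 29.5 CPM in the later EtOH libraries, and JUN at 25.8 and 24.2 CPM against 23.4 to 33.7 CPM. The dex libraries of 1 h were below all 10 later dex libraries for 43 of the 104 higher and 23 of the 68 lower features (10.4% of all tested features) and above them for 16 and 13 (8.64%).

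**Figure D5:**
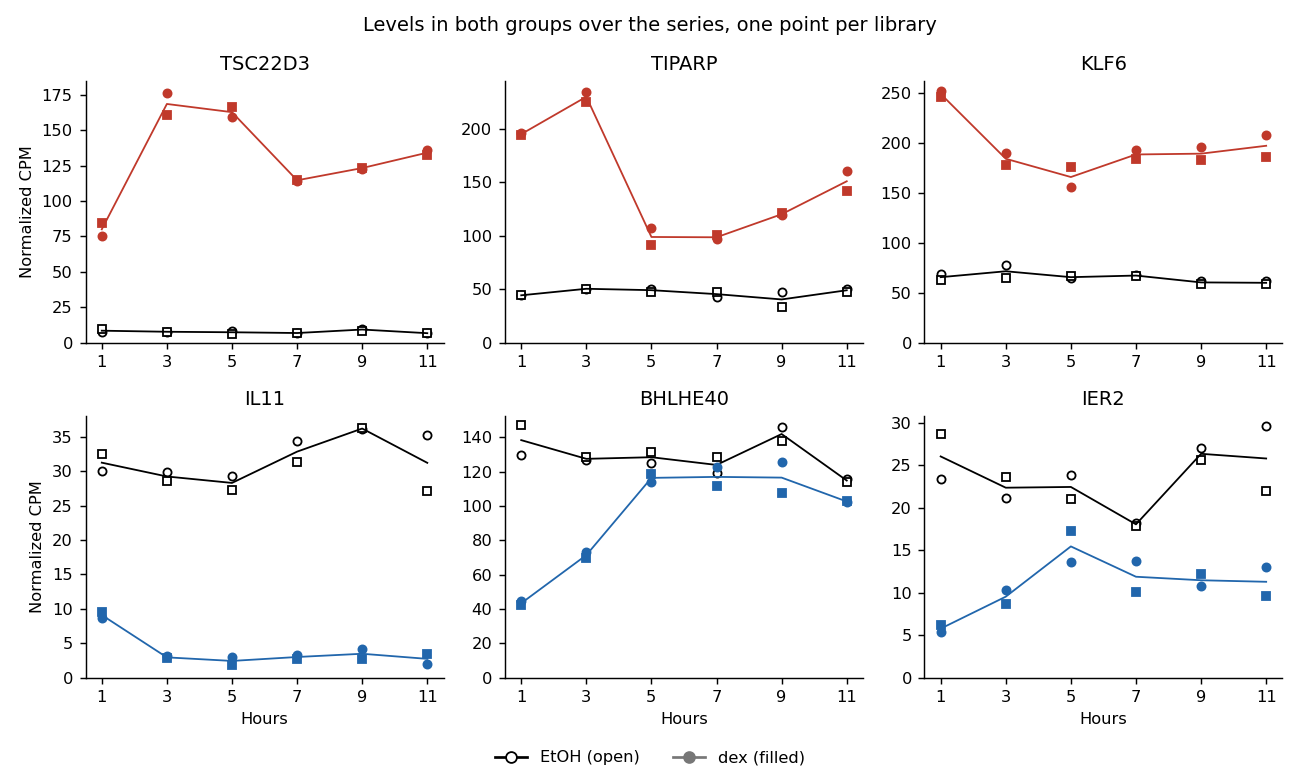
Normalized CPM (y axis, from 0) against hours of exposure (x axis) for TSC22D3, TIPARP, KLF6, IL11, BHLHE40 and IER2, with a point for each library, open for EtOH and filled for dex, circles for replicate 1 and squares for replicate 2, and lines through the means. At 1 h the dex points are already apart from the EtOH points in all 6 panels; those of KLF6 are at their highest (252 and 246 CPM), those of TSC22D3 and IL11 move further by 3 h, and those of BHLHE40 and IER2 move back towards EtOH.

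Fewer named genes kept their call when an EtOH library was left out than when a dex library was. The 2 dex libraries nevertheless differed more from each other than the 2 EtOH libraries did. Chi-square per degree of freedom between replicates, their spread relative to counting error, was 9.25 for dex and 3.81 for EtOH. A fit with 1 library in a group takes its spread from the other group. The lost calls therefore do not show which group was less reliable, and their cause was not tested. Of the 75 genes named by rule, 56 remained called without replicate 1 of EtOH, 56 without replicate 2 of EtOH, 70 without replicate 1 of dex and 74 without replicate 2 of dex. SGK1, TBX3, PER2, NR1D2, MAFK, ID4, FOSL1, MCL1, SPRY2, CCL2, EDN2, THBS1 and MT1X lost the call without either EtOH library, with edgeR adjusted p from 0.118 to 0.846 without replicate 1 and from 0.201 to 1 without replicate 2. CXCL8 (edgeR adjusted p = 0.121), ID2, CYR61, EREG, PLAU and PLAUR lost it, of the EtOH libraries, only without replicate 1, and AC098829.1, MB, TNFAIP3, EDN1, AXIN2 and PMAIP1 only without replicate 2. Large changes were among those lost, such as those of AC098829.1 (log2 -2.55), MB (-1.97) and CXCL8 (-1.80). Without replicate 1 of dex the call was lost for AC011446.2, MB, PER2, MAFK and AXIN2 (edgeR adjusted p from 0.132 to 0.244), and without replicate 2 of dex, the shallow library, for MT1X (edgeR adjusted p = 0.241). The nearest to the threshold were MT1X, a metallothionein (log2 0.73, edgeR adjusted p = 0.0986), on the passing side and JCAD (log2 0.53, edgeR adjusted p = 0.101) on the other.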

How the data were processed

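RNA-seq of poly-A RNA was analysed for dex and EtOH at 1 h, with the later time points as its course. Per the methods of the study, the authors aligned reads with Bowtie to GENCODE transcripts and counted reads per transcript with SAMtools, and the submitters' processing notes name hg19; the deposited values are counts, neither normalized nor divided by length. The placement of reads that match several transcripts and the use of strand are not given in the sources used here. The methods state triplicates, whereas the labels give 2 replicates. The row for unplaced reads holds 0 counts.

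Here, 110262 of 119207 transcripts (94.1% of counts) were joined to genes of GENCODE 29 by identifier and counts were summed per gene, because the split between transcripts is uncertain; the other 8945 were tested singly. Gene positions are those of GRCh38 and were not converted from the authors' build. filterByExpr kept 19897 features over the 12 groups. edgeR 4.0.16 (TMM, quasi-likelihood F-test, R 4.3.3) was run, with p-values adjusted by Benjamini-Hochberg and called at 0.1, for each time point on its 4 libraries, and for differences between time points on 8. The biological coefficient of variation was 9.40% at 1 h. Depth (6708864 to 13619043 counts) limits calls at low levels; counting floors cover counting error only.

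The 12 largest rises and the 12 largest falls among called features (a mean of at least 20 counts in the higher group, libraries not overlapping), the 4 markers and called members of 28 gene lists were named. The members and lists were chosen with earlier results of these data known. Tried beside these were DESeq2 1.42.0, edgeR with the size factors of DESeq2, other filters on low counts (none, or at least 10 in every library), all 24 libraries in a single fit, a block for the replicate number, calls at 0.05, only the most counted transcript of a gene, and the omission of each library. Promoters came from RefSeq on GRCh38.p14. Figures were drawn with matplotlib 3.10.9.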

Additional observations from a re-analysis of the deposited data

Results flagged for a closer look

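For 9 of the genes named by size or as markers, the dex effect at 3 h differed from that at 1 h in edgeR's test of the difference between the 2 fold changes, over 8 libraries that include those of 1 h. Most of these genes were chosen for a large change in the same 1 h libraries, which favours a smaller effect at 3 h, so that no p is given for the 4 that lessened and their values are a description. The log2 fold change grew from 1 to 3 h by 1.21 for TSC22D3 (standard error 0.21, adjusted p = 0.00234), by 1.21 for PER1 (0.21, adjusted p = 0.00245), by 1.26 for SYBU (0.29, adjusted p = 0.0220) and by 0.93 for KLF9 (0.26, adjusted p = 0.0679). For IL11 it went further down, with a difference of -1.54 (0.25, adjusted p = 0.00129). For KLF6 the effect lessened, with a difference of -0.58 (0.15). The falls of IER2 and BHLHE40 lessened by 0.94 (0.25) and 0.82 (0.15). MB differed by 2.55 (0.52), from -1.97 at 1 h to 0.58 at 3 h, at 6 and 6 counts in the dex libraries of 1 h against 31 and 42 with EtOH.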

How the results depend on the processing

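All 172 features kept their sign under each alternative in which they were tested, and no gene named by rule reversed. The dex and EtOH libraries of the 172 did not overlap, so most of these refits of the same libraries could hardly have changed a sign. The counts of features called higher and lower (104 and 68) were 78 and 47 with DESeq2, 103 and 66 with DESeq2's size factors, 98 and 62 with at least 10 counts in each library, 118 and 79 in one fit over 24 libraries, 84 and 49 with the most counted transcript and 84 and 51 at a threshold of 0.05. Without a filter they were 187 and 120. Leaving out 1 library gave 60 to 405 higher and 34 to 357 lower features, and 87 to 522 higher and 32 to 342 lower transcripts, against 153 and 82 with all. DESeq2 called 89 transcripts higher and 38 lower. For the difference between 3 and 1 h, leaving out 1 library gave 316 to 2085 calls against 904, and 30 to 75 against 64 among the 172. The lowest of the former came without replicate 2 of EtOH at 1 h and the highest without replicate 2 of dex at 1 h. For that between 11 and 1 h it gave 349 to 2268 against 769, and 20 to 64 against 46 (lowest without replicate 2 of EtOH at 11 h, highest without replicate 1 of dex at 11 h), and one fit over 24 libraries gave 1513. The cause of these shifts was not tested. An arm left with 1 library is assumed to vary like the other.

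Same-numbered dex and EtOH libraries share a number but no stated batch, and the correlation of their deviations over genes at 1 h was 0.134, with 2 pairs. With the replicate number as a block, 378 features were higher and 256 lower, 492 and 294 transcripts, and 244 features were called in the same direction at 1 and 3 h, against 137 without the block. The block leaves few residual degrees of freedom.

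With DESeq2, 13 of the 75 named genes lost the call, among them CXCL8, MB, PER2, FOSL1, SPRY2 and EDN2, as did 13 with the most counted transcript (SPRY1, SYBU, SGK1 and PLAUR among them), 4 in one fit over 24 libraries (AC098829.1, ANGPTL4, KLF15 and NR1D2), 2 with 10 counts per library and 2 with DESeq2's size factors. Depth limits low genes. Since each group has 2 libraries, edgeR borrows the spread from other features.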
